A study of Mus musculus with 7 samples.

Results

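The γδ intraepithelial lymphocytes (IELs) of the small intestine were selected on single-cell RNA counts as cells with 1 or more UMI (unique molecular identifier, a tag that counts 1 captured RNA molecule) of Trdc, 0 UMIs of Cd4 and Cd8b1, and no productive TRB contig among the sequenced T cell receptors. This gave 968 of 4348 young IEL cells and 858 of 5811 old IEL cells, or 1826 of the 21365 cells of the series. The young IELs came from male C57BL/6 mice of 6 weeks and the old IELs from mice of 80 weeks, with no further treatment, and each age formed 1 pool that a separate hashtag antibody identified. The sources used here differ on how many young mice were pooled, 3 or 6, and give 3 old mice. At both ages the pool combined equal numbers of cells sorted as CD3+ and as CD3+CD4+, and this mixture lowers the share of γδ cells by design. With 1 pool per age there was no test between groups, and the 95% intervals given throughout cover counting error alone.

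γδ T cells carry a receptor made of a γ and a δ chain in place of the α and β chains, and in the gut most of them live between epithelial cells, hold CD8αα homodimers without CD8β, and keep a cytotoxic program ready. Their receptor signals through CD3, and FcεRIγ (Fcer1g), an adaptor with an ITAM motif, can stand in for CD3ζ, while the ITAM adaptor DAP12 (Tyrobp) pairs with receptors of NK type. Mouse gut γδ cells are known for the Vγ7 segment, which is selected in the epithelium by a butyrophilin-like protein. Many αβ IELs that lack CD4 and CD8β, the CD8αα-type cells, share this program, so they were the main comparison.

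The cells carried the markers of the population. The level of a gene is given as its UMIs per 10000 UMIs, summed over the cells of a group. Trdc, the δ constant gene on chromosome 14 from 54142851 to 54148868 (GRCm38, plus strand), was used to choose the cells and stood at 4.29 in young (interval 4.14 to 4.44) and 3.87 in old cells (3.71 to 4.04). Of the gated cells, 23.9% at the young age and 40.1% at the old age had exactly 1 Trdc UMI, so the old gate lay closer to its threshold. Tcrg-C1, a γ constant gene on chromosome 13 from 19214103 to 19217024 (plus strand) that the rule did not use, stood at 3.74 (3.60 to 3.89) in young and 3.85 (3.69 to 4.02) in old γδ IELs. In CD8αα-type TRB-bearing IELs it stood at 1.00 and 1.14. Fcer1g stood at 21.0 in young and 29.1 in old γδ IELs, and Cd8a at 17.0 and 22.1. The same gate in spleen held 53 of 5668 young and 25 of 5538 old cells, in which Cd8a stood at 0.0676 and 0, Fcer1g at 1.45 and 0.802, and the granzyme gene Gzma at 0.372 and 0.365. These spleen cells held 295878 and 137098 UMIs, in which 3 counts equal a level of 0.101 and 0.219. Their low levels thus rest on few counts. Gzma in γδ IELs was 388 in young and 370 in old cells.

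Cells just outside the rule resembled those inside in part. A total of 280 young and 623 old cells met every condition except the Trdc UMI. A Tcrg-C1 UMI was found in 45.4% of them in young and 44.6% in old IELs, against 74.9% and 76.5% of the gated cells with exactly 1 Trdc UMI. Their median depth was also lower, at 5829.5 and 4728 UMIs against 6237 and 5806.5. Trdc UMIs were found in 8.91% of young and 4.46% of old TRB-bearing IEL cells, and in 1.16% and 0.92% of TRB-bearing spleen cells. Among cells with a Cd4 UMI, 15.4% of young and 26.1% of old IELs lacked a TRB contig, so the absence of a contig did not on its own mark a γδ cell. A TRA contig was found in 1 young and 4 old gated cells. Transcripts of Trac, the α constant gene, were nonetheless present at 4.16 in young and 7.12 in old γδ IELs, and the CD8αα-type cells held 4.22 and 6.03. The list of 3 αβ receptor constant genes summed to 9.79 in young and 11.95 in old γδ IELs, against 9.22 and 9.80 in CD8αα-type cells. Without Trac, 5.64 and 4.83 remained in γδ IELs, so these transcripts did not set the gated cells apart from αβ cells.

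The old cells held fewer UMIs per cell, and less RNA per cell cannot be told apart from less capture or sequencing. The young γδ IELs held 6973188 UMIs with a median of 6737.5 per cell, and the old 5398315 UMIs with a median of 6065.5. The 95th percentile was 13119.5 UMIs in young and 9800.2 in old cells. The median share of mitochondrial UMIs was 0.751% and 0.762%. Marker lists of other cells were summed in the γδ cells. The epithelial list of 16 genes summed to 0.106 in young and 0.135 in old γδ IELs, with 5 and 9 genes at 0, and Krt18 led it at 0.0416 and 0.0519. The B cell list of 9 genes summed to 0.822 and 1.05, with Cd79a and Ms4a1 at 0 in both ages and Cd79b, its leading gene, at 0.685 and 0.450. The myeloid list of 8 genes summed to 1.77 and 2.08, of which Cst3 gave 1.64 and 2.02, while S100a8 and S100a9 were at 0 in both ages. Of T cell lists, naive and recirculating genes summed to 0.809 and 0.617 (Tcf7 0.419 and 0.417) and helper and regulatory genes to 1.27 and 0.793, of which Ctla4 gave 1.25 and 0.769.

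As a share of IEL cells, the gate took 22.3% at the young age (21.0 to 23.5) and 14.8% at the old age (13.9 to 15.7). When every cell was first thinned at random to 2000 UMIs, the shares were 14.8% and 8.24%. The same gate held 0.935% of young and 0.451% of old spleen cells. Since CD4+ cells had been enriched in both pools, a lower share of γδ cells and a higher share of CD4+ cells cannot be told apart here.

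Of the Vγ genes, which the rule did not use, Tcrg-V7 set the γδ cells apart most clearly. Tcrg-V7, the Vγ7 gene on chromosome 13 from 19178024 to 19178492 (plus strand), stood at 14.4 in young (14.1 to 14.7) and 14.7 in old γδ IELs (14.4 to 15.1). A Tcrg-V7 UMI was found in 82.7% of the γδ cells at the young age (80.2 to 85.1) and 78.4% at the old age (75.5 to 81.1), or 74.9% and 71.8% after thinning. In the CD8αα-type TRB-bearing cells, which give the background, the share was 12.7% at a median of 6811.5 UMIs in young and 13.2% at 5815 UMIs in old IELs. Each cell was also assigned to the Vγ gene with most of its UMIs. By this measure Vγ7 led in 777 young cells, a share of 80.3% (77.6 to 82.7). It led in 626 old cells, a share of 73.0% (69.9 to 75.9). Tcrg-V1 led in 9.50% and 12.7% of the cells and Tcrg-V4 in 4.24% and 5.36%, with overlapping intervals between ages. No unique Vγ gene led in 5.37% and 8.39%. In CD8αα-type TRB-bearing cells Tcrg-V1 led in 16.2% and 18.2% and Tcrg-V4 in 26.1% and 30.7%. A lead of Tcrg-V1 or Tcrg-V4 thus did not set γδ cells apart.

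**Figure D1:**
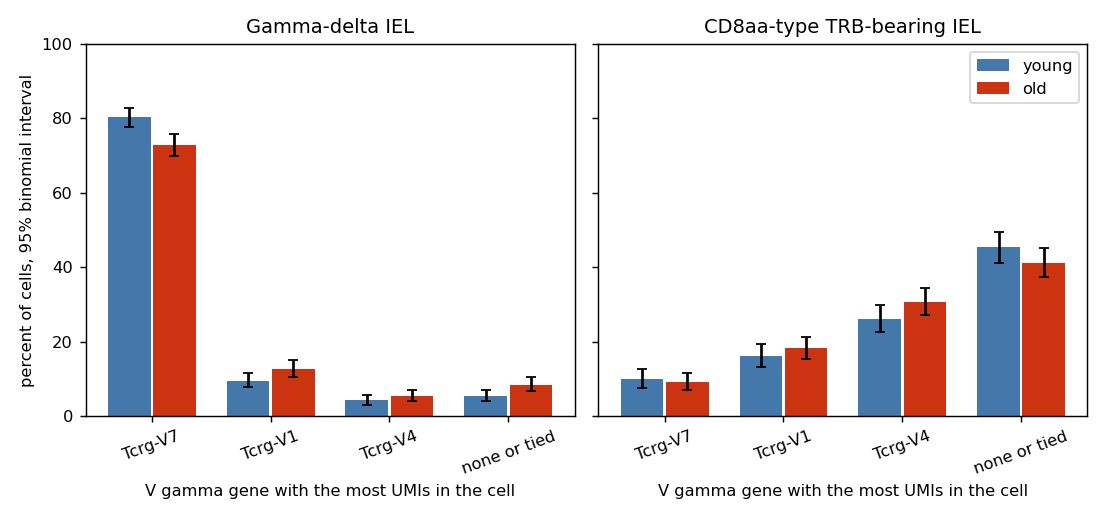
Percent of cells (y axis, bars with 95% binomial intervals) by the Vγ gene with the most UMIs in the cell (x axis), in young (blue) and old (red) γδ IELs on the left and CD8αα-type TRB-bearing IELs on the right. Tcrg-V7 led in 80.3% of young and 73.0% of old γδ IELs, against 9.97% and 9.17% of the TRB-bearing cells.

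The δ segments were more mixed. Trdv2-2 UMIs were found in 25.8% of young and 26.2% of old γδ IELs, and Trdv5 UMIs in 18.8% and 21.0%, with overlapping intervals. A UMI of Trav15d-1-dv6d-1 was found in 19.1% of the cells at the young age (16.7 to 21.7) and 7.69% at the old age (6.00 to 9.68), which did not overlap. Trav13-4-dv7 went the other way, from 5.68% (4.31 to 7.33) to 10.5% (8.52 to 12.7). Of the near relatives of the first, Trav15-1-dv6-1 was found in 5.89% (4.49 to 7.56) and 2.68% (1.71 to 4.0), and Trav15-2-dv6-2 in 8.47% and 12.0% with overlapping intervals. In CD8αα-type cells these 4 genes were each found in at most 1.72% of the cells. Near-identical Vδ genes may share reads, so the split between them is uncertain. γδ clones were not sequenced, so large clones cannot be told apart from broad use of a segment.

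Old and young γδ IELs were compared over the 6309 genes with a mean level of at least 0.2, without receptor segments and the genes of the rule. Ratios were taken as log2 of old over young after adding 0.1 to both levels, which understates the change of low genes, and a gene was called past 2-fold when this value was over 1 or under -1. In old cells 21 genes were higher past 2-fold, which is 0.333% of the genes, and 14 were lower, which is 0.222%. Of these, 11 of the 21 were under 0.2 in young cells and 5 of the 14 were under 0.2 in old cells, so they entered only through the age in which they were high. The median ratio over all genes was 0.03, and 96.5% of the genes had a ratio within 0.5 of 0 on the log2 scale. The genes higher in old cells included receptors encoded in the NK gene complex of chromosome 6, while a granzyme gene was among the lower ones.

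Bcl2l15, which encodes a member of the BCL2 family, stood at 0.141 in young (0.114 to 0.171) and 1.31 in old γδ IELs (1.21 to 1.41), a log2 ratio of 2.55. It entered only through the old cells. Klre1, which encodes an NK receptor of the C-type lectin family, stood at 0.386 in young cells (0.341 to 0.435) and at 1.85 in old ones (1.73 to 1.96), a ratio of 2.0. Gm156, a lectin-like gene of the same complex, stood at 0.931 and 3.32, a ratio of 1.73. The intervals of the ages did not overlap for any of these genes. After thinning, a Klre1 UMI was found in 6.10% of young and 25.5% of old cells, and a Gm156 UMI in 6.20% and 23.9%. Klre1 lies at chr6:129577905-129585827 on the plus strand and Gm156 at chr6:129766568-129784270 on the minus strand (GRCm38).

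Other genes higher in old γδ IELs were Ddc, which encodes aromatic amino acid decarboxylase, at 0.591 in young and 2.02 in old cells (log2 ratio 1.62), and Rnf180, a ubiquitin ligase gene, at 0.310 and 1.12 (1.57). Rasgrf1, a Ras exchange factor gene, had a ratio of 1.28 and Frmd5, a FERM domain gene, 1.25. Xcl1, the chemokine that attracts XCR1+ dendritic cells, stood at 2.05 in young cells (1.95 to 2.16) and at 4.56 in old ones (4.39 to 4.75), a ratio of 1.12. Arrdc4 (1.06) and AC149090.1 (1.01) were the last of the named genes past 2-fold. Below that line came Zmat4 with a ratio of 0.94, the glucocorticoid-induced Tsc22d3 with 0.93, Rhob with 0.88, Afdn with 0.87 and the inhibitory receptor gene Cd200r2 with 0.84. Genes near the line crossed it under alternatives. AC149090.1 had 0.73 after thinning and Arrdc4 0.94 with 2 or more Trdc UMIs, while Zmat4 had 1.04 in cells with a Tcrg-V7 UMI.

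The 250 bases before the RefSeq start of Xcl1 are shown because Xcl1 had the highest levels in old γδ IELs of the named genes past 2-fold. They are from GRCm38.p6, on the minus strand, 5′ to 3′, and the capitals mark the core letters bound by RUNX factors, which are central to CD8 T cell programs.
Xcl1, chr1:164935523-164935772: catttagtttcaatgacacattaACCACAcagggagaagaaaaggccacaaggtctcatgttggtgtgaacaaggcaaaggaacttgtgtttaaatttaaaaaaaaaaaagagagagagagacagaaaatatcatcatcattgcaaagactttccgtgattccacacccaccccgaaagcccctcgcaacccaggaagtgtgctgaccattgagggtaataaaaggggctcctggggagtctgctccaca
The RUNX letters searched were TGTGGT, or ACCACA on the other strand, and they occur in 14.0% of the 32851 RefSeq windows of this length. The T-box letters TCACAC, or GTGTGA on the other strand, were also searched, occur in 12.3% of the windows and have 1 match here, in lower case. A match describes the letters and not binding.

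The lowest ratio among the 30 genes chosen by rank was that of Lgals1, which encodes galectin-1, at 0.819 in young (0.753 to 0.889) and 0.2 in old cells (0.164 to 0.242), a log2 ratio of -1.61. Plac8 stood at 2.81 (2.68 to 2.93) and 1.09 (1.01 to 1.19), a ratio of -1.28. Gzmk, which encodes granzyme K, stood at 2.28 (2.17 to 2.40) and 0.887 (0.810 to 0.970), a ratio of -1.27. Ighm transcripts had a ratio of -1.27, Acp5 -1.06, the amino acid transporter gene Slc16a10 -1.03 and Gmfg -1.0. The old cells were lower for all of these with no overlap of the intervals. Beside Ighm, the B cell gene Cd79b was also lower in old cells (0.685 and 0.450) while the sum of the B cell list was higher, and the part of B cell RNA was not tested. Cd74 (0.0918 and 0.433) and H2-Eb1 (0.0975 and 0.404), genes of MHC class II presentation named after their values were seen, were higher past 2-fold in old cells. Both entered only through the old cells. In CD8αα-type cells, where neither reached the minimum mean level, their ratios were 0.89 and 1.10. The part of RNA from antigen-presenting cells was not tested. Under the 2-fold line were Thy1 (-0.81), Abcb9 (-0.80), the lamin gene Lmnb1 (-0.72), Anxa2 (-0.69), the inflammasome adaptor gene Pycard (-0.65), Emp3 (-0.64) and Ms4a6b (-0.64). Thy1 had a ratio of -1.36 in cells with a Tcrg-V7 UMI, and Ms4a6b had -1.12 after thinning. Other calls were lost under alternatives. Acp5 had -0.91 after thinning, Slc16a10 -0.94 with 2 or more Trdc UMIs, and Gmfg -0.99 with the mean over cells of per-cell levels. With only cells without a Mki67, Top2a or Pclaf UMI, Lgals1 had a ratio of -1.76 and Gzmk of -1.20, while Lmnb1 had -0.52.

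**Figure D2:**
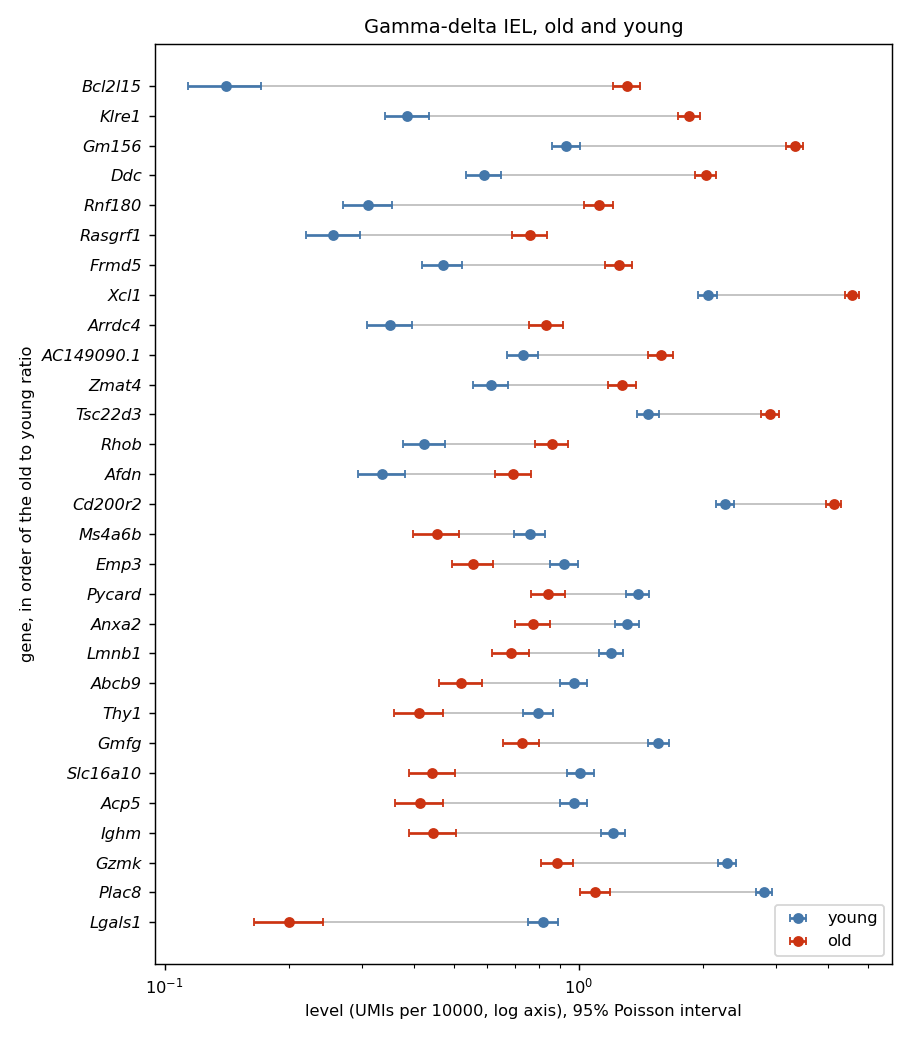
Level in UMIs per 10000 (x axis, log scale) of the 15 genes with the highest ratio of old over young in γδ IELs and 14 of those with the lowest, among genes with a mean level of at least 0.5, in order of that ratio (y axis), with young cells in blue, old cells in red and 95% Poisson intervals. Bcl2l15 at the top stood at 0.141 in young and 1.31 in old cells, and Lgals1 at the bottom at 0.819 and 0.2.

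Gene lists of IEL biology were set beside these values, each with its count past 2-fold and its median ratio, against 0.03 over all genes. In the list of ITAM adaptors and NK receptors, 12 of 30 genes entered, 2 were higher past 2-fold (Klre1 and Gm156), none was lower, and the median was 0.32. Fcer1g stood at 21.0 in young cells (20.6 to 21.3) and at 29.1 in old ones (28.7 to 29.6), and Tyrobp at 11.3 (11.1 to 11.6) and 19.4 (19.1 to 19.8), a ratio of 0.78. Crtam, a receptor of cytotoxic T cells, had a ratio of 0.64. Inhibitory receptors and the TNF receptor family had a median of 0.22 over 14 genes, of which 11 were above 0 and none was past 2-fold. Within it Tigit stood at 1.69 and 3.07, Lag3 at 3.08 and 4.45 and Cd96 at 2.94 and 4.27, while Ctla4 was lower in old cells with a ratio of -0.63.

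The cytotoxic list had 18 genes that entered and a median of 0.07, with Gzmk alone past 2-fold. Gzmb, the granzyme B gene, stood at 101 in young and 73.8 in old cells, Cst7 at 4.90 and 7.13, and Fasl, the Fas ligand gene, at 1.73 and 2.27. Of 7 cytokine and chemokine genes, Xcl1 alone passed 2-fold and the median was -0.10. Ccl5, a chemokine gene, stood at 485 and 331, Ifng at 0.186 and 0.402, and Ltb at 0.882 and 1.33. Among 12 cytokine receptor genes none passed, with a median of 0.11. The largest ratio there was that of Kit, the stem cell factor receptor gene, which stood at 0.486 and 0.861, followed by Il7r (0.52), Il12rb2 (0.38) and Il10rb (0.38). Il2rb, the shared IL-2 and IL-15 receptor gene, stood at 5.44 and 6.38.

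The medians of the receptor and residence lists were small, though single members moved more. In the list of the TCR complex and proximal signalling, 15 genes entered, none passed 2-fold and the median was -0.01. Cd3g stood at 32.2 and 33.1, Cd247, the CD3ζ gene, at 2.36 and 1.88, the adaptor gene Lat at 3.24 and 2.35, and Prkcq at 0.595 and 0.697. In the homing and junction list, 18 genes entered, none was higher past 2-fold and the median was -0.10. Its count lower past 2-fold is not reported here. Itgae, which encodes the integrin CD103 that binds epithelial E-cadherin, stood at 8.62 and 8.37 with overlapping intervals, Itga4 had a ratio of -0.73, Cxcr6 of -0.40 and Gpr34 of -0.39. Of 20 transcription factor genes none passed and the median was 0.09. Ikzf2, which encodes Helios, stood at 6.84 and 6.79, Hopx at 1.41 and 2.34, Tox at 3.32 and 4.32, and Bach2 and Zeb2 had ratios of 0.59 and 0.57.

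All 13 genes of MHC class I presentation that entered had a ratio above 0, with a median of 0.35 and none past 2-fold, and CD8αα-type cells also had 13 of 13 above 0 with a median of 0.37. H2-K1 stood at 19.9 and 27.2, H2-D1 at 24.7 and 31.6 and H2-Q4 at 2.37 and 3.67, and the near-identical H2 genes may share reads. Ratios of H2-Q6 and H2-Q7 were 0.60 and 0.45. Of 17 immediate early and heat shock genes 14 had a ratio above 0 and none passed, with a median of 0.29, against 14 of 17 and 0.33 in CD8αα-type cells. Jun stood at 2.42 and 4.38, Junb at 26.7 and 33.5, Btg2 at 4.10 and 6.16, Jund at 9.73 and 14.0 and Nr4a1, an early target of receptor signals, at 1.89 and 1.34. These genes also respond to handling, whose part was not tested. Of 16 interferon response genes Ifi27l2a alone passed, at 0.767 in young and 0.167 in old cells, and the median was -0.04. Ly6e, the member with the most UMIs, stood at 7.16 and 6.95, and Zbp1, Irf1 and Ifi47 had ratios of -0.36, 0.30 and 0.16.

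Of 9 cell cycle genes that entered, 8 had a ratio below 0, Stmn1 alone was past 2-fold and the median was -0.29, against -0.31 in CD8αα-type cells. Stmn1 stood at 0.522 and 0.198, Top2a, a topoisomerase gene of dividing cells, at 0.591 and 0.261, Hmgb2 at 8.52 and 8.24, and Mcm5 and Mcm3 had ratios of -0.52 and -0.46. The lists of ageing and senescence (7 genes, median 0.05), lipid metabolism (13 genes, median 0.06), glycolysis (14 genes, median -0.02) and survival and apoptosis (10 genes, median -0.02) had no gene past 2-fold. Among ageing genes Cdkn1b, Trp53 and Mdm2 had ratios of 0.15, 0.13 and 0.11, each with overlapping intervals, and Lmnb1 is given above. Bcl2, which protects T cells from apoptosis, stood at 3.77 (3.63 to 3.92) in young and 6.38 (6.17 to 6.60) in old γδ IELs, while Bak1, Birc3 and Pmaip1 had overlapping intervals. Acot7 had a ratio of 0.47, Hmgcs1 of 0.33 and Acadm of -0.29, and among glycolysis genes Ldha had -0.26, Tpi1 0.32, Slc2a3 -0.30 and Gpi1 -0.25.

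The same pools allowed the ages to be compared within Vγ groups of the gated cells. Groups are named by the leading transcript, and Tcrg-V1 and Tcrg-V4 also led in many CD8αα-type cells. Tyrobp stood at 11.2 in young and 21.5 in old Vγ7 cells, but at 11.7 and 11.0 in Tcrg-V1 cells and 15.8 and 13.2 in Tcrg-V4 cells, with overlapping intervals in the last 2 groups. Fcer1g stood at 21.6 and 31.4 in Vγ7 cells, at 17.6 and 20.6 in Tcrg-V1 cells and at 19.8 and 21.1 in Tcrg-V4 cells. Klre1 was higher in old cells of each group, from 0.431 to 2.11 in Vγ7 cells, 0.205 to 0.832 in Tcrg-V1 cells and 0.290 to 0.904 in Tcrg-V4 cells. Gm156 stood at 0.922 and 3.72 in Vγ7 cells, at 0.835 and 2.21 in Tcrg-V1 cells and at 0.833 and 0.868 in Tcrg-V4 cells. Plac8 stood at 2.58 and 0.686 in Vγ7 cells, at 4.19 and 2.99 in Tcrg-V1 cells and at 4.13 and 1.92 in Tcrg-V4 cells. Gzmk stood at 2.19 and 0.694, at 2.91 and 1.68 and at 2.93 and 1.66 in the same groups. The smaller groups held 92 young and 109 old Tcrg-V1 cells and 41 young and 46 old Tcrg-V4 cells, and the differences between Vγ groups were not tested.

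**Figure D3:**
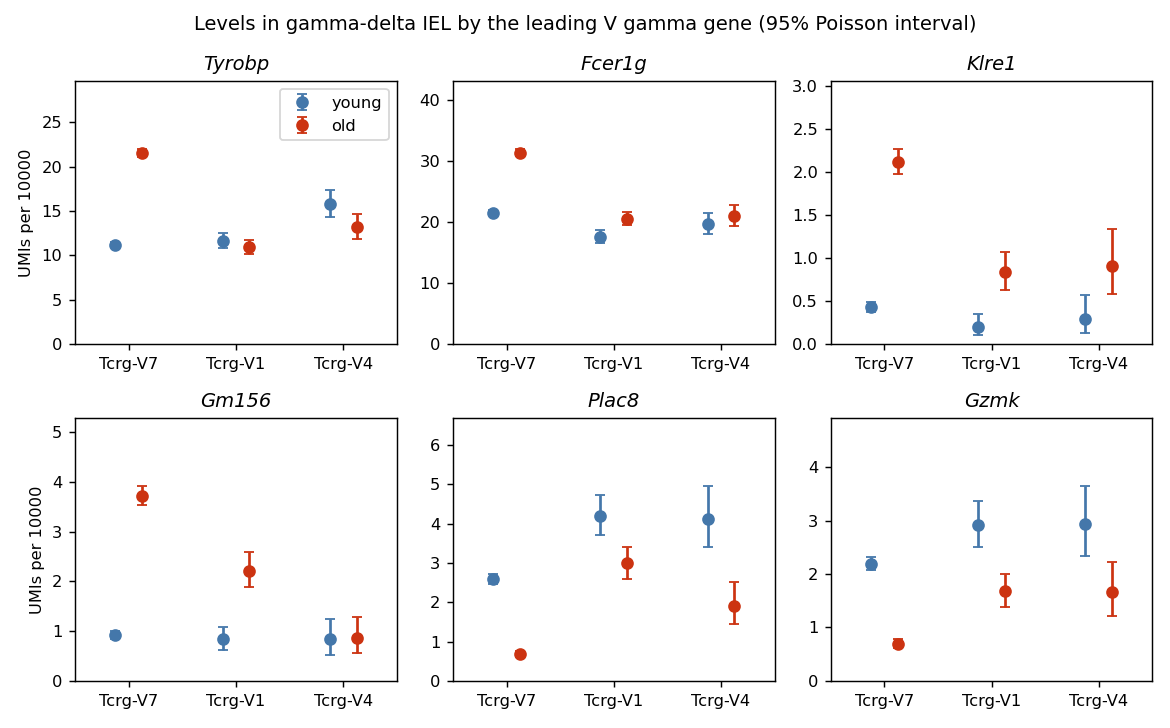
Level in UMIs per 10000 (y axis, from 0) of 6 genes in γδ IELs grouped by the leading Vγ gene (x axis), young in blue and old in red, with 95% Poisson intervals. Tyrobp reached 21.5 in old Vγ7 cells and 11.0 in old Tcrg-V1 cells.

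γδ IELs were next compared with CD8αα-type TRB-bearing IELs of the same pool, defined by a productive TRB contig, 0 UMIs of Cd4, Cd8b1 and Trdc, a Cd8a UMI, and a clonotype with few Cd4+ or Cd8b1+ cells. There were 582 such cells of 458 clonotypes in young and 665 of 293 in old IELs. The largest clonotype held 23 young cells, or 3.95%, and 147 old cells, or 22.1%, so the old group rests more on 1 clone. Of 6222 genes in young IELs, 4 were higher in γδ cells past 2-fold (0.0643%) and 7 lower (0.113%). Of 6389 in old IELs, 3 were higher (0.047%) and 2 lower (0.0313%). Receptors of the Klra (Ly49) family, which bind MHC class I, were 4 of the 7 genes lower in young γδ cells and both of those lower in old ones.

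Klra7 stood at 0.182 (0.152 to 0.217) in young γδ cells against 2.96 (2.79 to 3.13) in young CD8αα-type cells, and at 0.0333 (0.0198 to 0.0527) against 1.03 (0.936 to 1.14) in old cells. Klra6 stood at 0.0531 against 0.780 in young and 0.159 against 0.702 in old cells. Klra1 (0.116 against 0.826) and Klra5 (0.949 against 2.55) were lower past 2-fold in young γδ cells. In old cells Klra5 stood at 0.650 against 0.709 and Klra1 at 0.0259 against 0.0498, with overlapping intervals. Klre1 stood at 0.386 against 1.48 in young and 1.85 against 2.47 in old cells. Klra genes are close relatives and may share reads, so levels of single members are uncertain.

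Klra1, Klra6 and Klra7 in young and Klra6 and Klra7 in old γδ cells were under 0.2 and entered only through the CD8αα-type group, so that they could only be lower. The summed level of the whole list of ITAM adaptors and NK receptors was 60.9 in young γδ and 82.5 in young CD8αα-type cells, and 82.3 and 80.6 in old cells. Tyrobp stood at 11.3 against 19.1 in young and at 19.4 against 13.6 in old cells, so the order of the sums turned with age. By leading Vγ gene, Tyrobp in old γδ cells stood at 21.5 in Vγ7, 11.0 in Tcrg-V1 and 13.2 in Tcrg-V4 cells. The order of Xcl1 also turned (2.05 against 3.34, then 4.56 against 3.09).

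**Figure D4:**
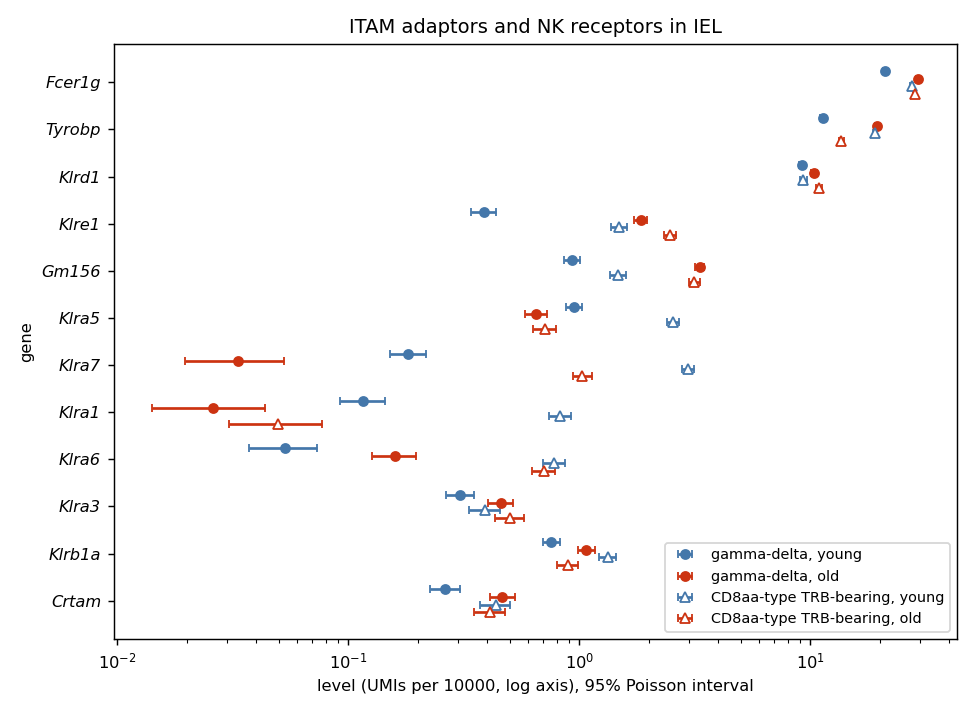
Level in UMIs per 10000 (x axis, log scale) of 12 genes of ITAM adaptors and NK receptors (y axis) in γδ IELs (filled circles) and CD8αα-type TRB-bearing IELs (open triangles), young in blue and old in red, with 95% Poisson intervals. Klra7 stood at 0.182 in young γδ cells and 2.96 in young TRB-bearing cells.

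Among the genes higher in γδ cells, Zmat4, a zinc finger gene, stood at 0.614 against 0.160 in young and 1.27 against 0.202 in old cells. Scin, which encodes an actin-severing protein, stood at 0.706 against 0.0978 in young and 0.763 against 0.194 in old cells. Scin at both ages and Zmat4 in young cells were under 0.2 in CD8αα-type cells and entered only through the γδ group. Plac8 stood at 2.81 against 1.08 and 1.09 against 0.530, and Cd247 at 2.36 against 1.18 and 1.88 against 1.11. Themis, a gene of thymic selection, was higher past 2-fold in young γδ cells only, at 1.17 against 0.372, and stood at 1.24 against 1.17 in old cells, while Rnf180 passed in old cells only, at 1.12 against 0.5. Whether the difference itself changed with age was not tested. The other genes chosen by the rule with higher levels in γδ cells at both ages (Tspan9, Lilr4b, Inpp4b, Grap2, Nfil3, Ctsc, Napsa and Car2) and those with lower ones (Cyb5a, Gm19585, Zbtb38, Tspan3, Fam3c, Mgst2, Eif3b and Imp4) stayed under 2-fold. Outside the NK receptor list, no list had a gene past 2-fold in this comparison at either age, and the medians of those lists lay between -0.15 and 0.13.

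The ratios of old over young of the named genes are set side by side for both kinds of IEL, which came from the same 2 pools. In CD8αα-type cells 20 of 6322 genes were higher past 2-fold in old cells (0.316%) and 14 lower (0.221%). Bcl2l15 had a ratio of 2.55 in γδ and 1.97 in CD8αα-type cells, Gm156 1.73 and 1.05, Ddc 1.62 and 1.02, AC149090.1 1.01 and 1.04, Ighm -1.27 and -1.56 and Slc16a10 -1.03 and -1.28, all past 2-fold in both. Klre1 (2.0 and 0.70), Rnf180 (1.57 and 0.68), Rasgrf1 (1.28 and 0.84), Plac8 (-1.28 and -0.90), Gmfg (-1.0 and -0.25), Frmd5 (1.25 and -0.06), Xcl1 (1.12 and -0.11), Arrdc4 (1.06 and -0.26), Gzmk (-1.27 and -0.22), Lgals1 (-1.61 and -0.36) and Acp5 (-1.06 and -0.02) passed 2-fold in γδ cells and not in CD8αα-type cells. In the opposite sense Klra5 had -0.48 and -1.71 and Themis 0.07 and 1.43. The γδ calls of AC149090.1, Slc16a10, Gmfg, Arrdc4 and Acp5 were lost under alternatives given above. With 1 pool per age the difference between the ratios in the 2 kinds of cell was not tested.

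**Figure D5:**
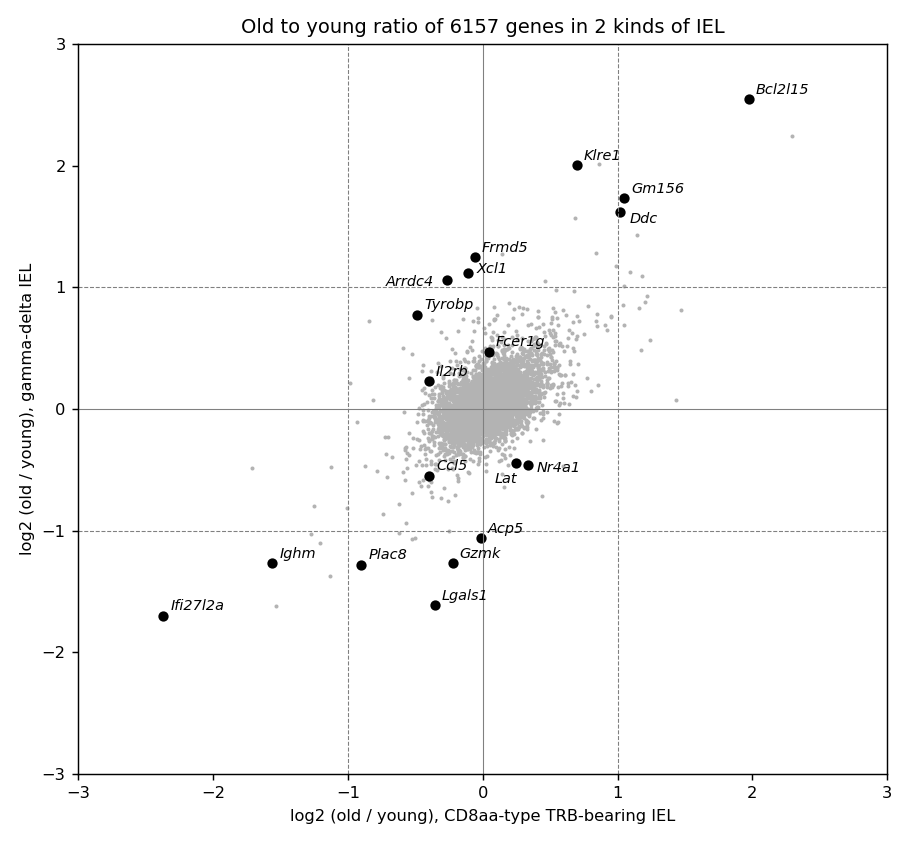
Log2 ratio of old over young in γδ IELs (y axis) against the same ratio in CD8αα-type TRB-bearing IELs (x axis) for the 6157 genes that entered in both, with dashed lines at 2-fold and 19 genes labelled. Xcl1 and Frmd5 lie above the upper line in γδ cells with ratios near 0 in TRB-bearing cells.

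Against all TRB-bearing IELs, of which the sort set the CD4+ share, differences were more frequent. The reference groups left out the TRB-bearing cells with a Trdc UMI, 246 young and 160 old, and held 2514 young and 3426 old cells. In young IELs 17 of 6194 genes were higher in γδ cells (0.274%) and 88 lower (1.42%), and in old IELs 25 of 6375 were higher (0.392%) and 48 lower (0.753%). Some receptor and cytokine genes, chosen after their values were seen, were far lower in γδ IELs. Cd5, a receptor that dampens TCR signals, stood at 0.0186 in young and 0.0296 in old γδ cells against 2.84 and 3.82 in TRB-bearing cells, and Cd6, a related receptor, at 0.161 and 0.213 against 2.45 and 3.59. The costimulatory gene Cd28 stood at 0.0229 and 0.0241 against 1.06 and 0.473, and Il17a at 0.00574 and 0.00741 against 3.38 and 1.60. Cd5, Cd28 and Il17a at both ages and Cd6 in young cells were under 0.2 in γδ cells and entered only through the TRB-bearing group. In CD8αα-type cells Cd5 stood at 0.124 and 0.169 and Cd6 at 0.122 and 0.162.

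The γδ cells of both ages fell into 4 clusters by the Leiden algorithm, clustered on 2000 variable genes without receptor segments. Cluster 1 held 656 cells and was led by Gm156, Klre1 and Bcl2l15, cluster 2 held 514 cells with Il7r, Scin and Themis, and cluster 3 held 482 cells with Stmn1, Lgals1 and Hist1h2ae. Cluster 4, with 174 cells, was led by Xcl1, Tcf7 and Batf3. Because leading genes of clusters 1 and 3 are among those that differ between the ages, the sizes are given as a description only. Cluster 1 held 59.3% of the old and 15.2% of the young cells, and cluster 3 held 6.18% and 44.3%. Tyrobp stood at 23.7 in young and 26.8 in old cells of cluster 1, at 12.9 and 19.7 in cluster 3 and at 4.40 and 16.0 in cluster 4. In cluster 2 it was lower in old cells, at 4.86 and 1.91. In clusters 1 to 4, 86.4%, 69.6%, 86.7% and 75.3% of the cells had a Tcrg-V7 UMI. Gzma stood at 18.0 in young and 18.6 in old cells of cluster 4, against 355 to 459 in clusters 1 to 3. Gzmb stood at 6.42 and 6.07 in cluster 4, against 79.1 to 125 in clusters 1 to 3. Within cluster 4, Xcl1 stood at 20.5 in 83 young cells and 30.8 in 91 old cells. In clusters 1 to 3 it stood at 0.0841, 0.0713 and 0.269 in young and 1.18, 1.46 and 0.715 in old cells, so it was higher in old cells in each cluster, and the clusters were themselves made from these genes.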

How the data were processed

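Single-cell 5′ gene expression and TCR libraries of young and old IEL and SP were used. Per the submitters' processing notes, Cell Ranger 7.0.1 and mm10 were used. The authors deposited whole-number UMI counts per gene and cell without normalization, beside tables of productive TRA and TRB contigs per the file headers. γ and δ contigs were not analysed here. Cell barcodes had been assigned to 4 groups by hashtag before deposit, and 0 of 21365 barcodes occurred in more than 1 group. No further filter on cells and no doublet caller was applied. The gate itself removes cells with a TRB contig, and cells above the 95th percentile of UMIs of their group were left out as an alternative.

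UMIs were summed over the cells of a group and divided by their total. Intervals are exact Poisson for levels and Clopper-Pearson for shares, at 95%. They cover counting error only, and the cells of 1 pool are not replicates. A UMI minimum of 0.2 per 10000 (mean of both groups) and a pseudocount of 0.1 were used. At the minimum, the sums held 139 counts in young and 108 in old γδ IELs. The CD8αα-type clonotypes had a Cd4 UMI in under 10% and a Cd8b1 UMI in under 10% of their cells. Thinning to 2000 UMIs drew without replacement and left out 0 young and 4 old γδ cells. Named genes were the 15 highest and 15 lowest ratios of old over young with a mean level of at least 0.5, the 10 highest and 10 lowest of γδ over CD8αα-type cells by the smaller ratio of both ages, the member with the most UMIs and up to 4 with the largest ratio in each list, and the population's markers. Scin, Klra1, Klra5, Klra6, Themis, Cd5, Cd6, Cd28 and Il17a are outside that rule for the comparison where they are named and were chosen after their values were seen. The members and lists were chosen with earlier results of these data known. Clusters used scanpy 1.11.5 (10 components, 15 neighbours, resolution 0.4). Positions are GENCODE M21 on GRCm38, matched by identifier for 124 of 125 genes. The scripts were tested on simulated counts. Some genes that these rules name are not reported here.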

Additional observations from a re-analysis of the deposited data

Results flagged for a closer look

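Of the 111 named genes that entered in both kinds of cell, 4 had ratios of old over young with opposite signs in γδ and CD8αα-type TRB-bearing IELs, and no overlap of the counting intervals of the ages in either kind of cell. Tyrobp had a log2 ratio of 0.78 in γδ and -0.49 in CD8αα-type cells, Il2rb 0.23 and -0.40, Lat -0.44 and 0.25, and Nr4a1 -0.46 and 0.33. Over all 6157 genes that entered in both, 20 (0.325%) met the same condition, and since the named genes were chosen for large ratios nothing is read from their share. There was 1 pool per age, so the difference was not tested. The old CD8αα-type group held 1 clonotype with 22.1% of its cells.

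Cells outside the gate also carried γδ receptor transcripts. Of the TRB-bearing IEL cells with a Trdc UMI, 75.6% in young (69.7 to 80.8, 246 cells) and 77.5% in old (70.2 to 83.7, 160 cells) had a Tcrg-V7 UMI, against 12.7% and 13.2% of CD8αα-type cells, which have 0 Trdc UMIs. Their median depth was 7865.5 and 7702.5 UMIs, above the 6737.5 and 6065.5 of the gated cells. The part of doublets in this group was not tested.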

How the results depend on the processing

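With 1 pool per age the limits are those of the pools: no replicate was left out, and mouse, library and age cannot be told apart. No paired analysis was possible because each group is 1 sample and the result comes from no test. The count of 35 genes past 2-fold between old and young γδ IELs was between 32 and 42 under 10 alternatives of the gate, the cells and the scaling. It was 7 with a pseudocount of 0.5 and 53 with 0.02, and 8 with a minimum level of 1 and 53 with 0.05. Among the 10 alternatives, leaving out cells over 5% mitochondrial UMIs removed no γδ cell, so the count under that filter could not differ. Against CD8αα-type cells, the 11 genes in young IELs became 7 with a pseudocount of 0.5, 3 with a minimum of 1, 17 with a minimum of 0.05 and 39 with no requirement on Cd8a. The 5 genes in old IELs became 2 and 10 with pseudocounts of 0.5 and 0.02, 0 and 10 with minima of 1 and 0.05, 17 with no filter on clonotypes and 16 with no requirement on Cd8a. Against all TRB-bearing cells, the 105 genes in young IELs became 46 with a pseudocount of 0.5 and 27 with a minimum of 1, and the 73 in old IELs became 29 and 19. The gate's share of 22.3% in young and 14.8% in old IELs became 14.8% and 8.24% after thinning, 17.0% and 8.85% with 2 or more Trdc UMIs, and 27.2% and 22.6% with any γ or δ constant gene and no contig. The Tcrg-V7 share became 74.9% and 71.8% after thinning, and Vγ7 gave 82.8% of the Vγ UMIs in old cells. The 4 clusters became 10 at a resolution of 0.8, 3 at 0.2 and 5 after thinning, where the largest held 387 young and 512 old cells, against 147 and 509 in cluster 1, and the next 448 and 213, so the shares of the ages by cluster depend on the setting. The cause of these changes was not tested, except that a stricter minimum enters fewer genes. Signs were tried for named genes only, between the ages and against CD8αα-type cells, and none of those past 2-fold turned its sign. Other genes past 2-fold were not tried one by one. Of 2156 values of single genes under the alternatives, 162 moved beyond their counting interval, among them Xcl1, whose ratio of 1.12 was 1.62 after thinning. The 2156 include values under the minimum levels and the mitochondrial filter, which could not move a single gene.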
